A study of Mus musculus with 12 samples.

Results

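The 10 genes described here encode innate sensors and the first steps behind them: the Toll-like receptors Tlr2 and Tlr4, the adaptor Myd88, the NF-kB subunit Nfkb1, the cytokine Tnf, the inflammasome genes Nlrp3, Pycard and Casp1, and the inflammasome-matured cytokines Il1b and Il18. They were taken by name from a table of 23284 genes, and all 10 were among the 12502 genes with enough signal to be tested. Their RNA was read in type 3 innate lymphoid cells (ILC3s) sorted from the small intestine of HR-1 mice, a hairless strain, at 18 weeks of age. Of the libraries, 6 came from PA milk mice, nursed by mothers whose chow had palmitic acid added, and the other 6 from ND mice, nursed on milk of mothers on normal chow. Cells were taken from the intraepithelial layer (IEL), where lymphocytes lie between the epithelial cells, and from the lamina propria (LP), the connective tissue below. This gave 4 groups of 3 libraries, PA IEL, ND IEL, PA LP and ND LP. All 4 groups share the strain, the age and the sort, which kept lineage-negative cells with surface Thy1.2, CD25 and Nrp1 (the study's text names CD4 in one place and CD45 in another as the further marker). The study describes PA milk pups as born to ND mothers and swapped after birth to mothers given palmitic acid, and names no swap for ND pups. It also reports eczema in grown PA milk offspring, without saying whether the sequenced mice had it. The swap and the skin state therefore cannot be told apart from the milk. Whether a library holds cells of 1 animal or of several, and whether same-numbered IEL and LP libraries share a mouse, is not stated in the sources used here, so p-values measure the spread between these libraries, which may in part be technical.

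Toll-like receptors are membrane proteins that recognise microbial molecules, TLR2 bacterial lipoproteins and TLR4 lipopolysaccharide. Both signal through the adaptor MyD88 to NF-kB, which switches on inflammatory genes such as Tnf and the precursor of interleukin-1β. The NLRP3 inflammasome is a second tier: the sensor NLRP3 recruits the adaptor ASC, encoded by Pycard, which activates caspase-1, and caspase-1 cuts the precursors of interleukin-1β and interleukin-18. Macrophages and other myeloid cells are the best known users of this pathway, whereas interleukin-18 is also made by intestinal epithelium and ILC3s mainly respond to interleukin-1β and interleukin-23 from their neighbours. The study asked how milk rich in a long-chain saturated fatty acid changes the gut immune system of the offspring, and these genes are the part of its RNA data closest to danger sensing.

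Levels are FPKM, fragments per kilobase of transcript scaled to library size, which allows levels of different genes to be set side by side. The libraries held 8.77 to 14.62 M reads, as worked out from the steps between low FPKM values. Genes with an FPKM of at least 1 numbered 4390 in PA IEL replicate 2 and 5637 in PA LP replicate 2, against 7863 in ND IEL replicate 2 and 8406 to 11378 in the other 9 libraries. The 2 libraries with the fewest genes are both PA milk libraries, so results are also given without them. Of 20 ILC3 marker genes, 1 reached an FPKM of 1 in PA IEL replicate 2, 3 in PA LP replicate 2 and 6 in ND IEL replicate 2, against 8 to 20 in the other libraries. Thy1, whose protein was used in the sort, was listed at 0 in 5 libraries, while the lymphoid regulator Id2 was present in all 12 at 95.2 to 749.6 FPKM. Of 21 marker genes of macrophages, monocytes and neutrophils, 13 reached an FPKM of 1 in all 12 libraries, among them Lyz2 at 82.3 to 10376 FPKM. In pooled RNA, fewer cells of a type and less RNA per cell cannot be told apart.

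The 10 genes spread over a wide range of levels. Pycard was the highest, with a median of 113 FPKM over the 12 libraries, and the only one that reached an FPKM of 1 in every library. Casp1 followed at 89.4 FPKM, Myd88 at 71.2 and Il18 at 50.5. Nfkb1, at 14.5, Tnf, at 10.3, and Tlr2, at 7.20 FPKM, made up the middle of the order. At the bottom stood Il1b with a median of 4.17 FPKM, Tlr4 with 0.232 and Nlrp3 with 0. Neighbours in this order overlapped over the libraries: the range of Pycard was 21.1 to 292.9 FPKM, that of Casp1 0 to 149.2 and that of Il18 0.118 to 173.7. Thus the adaptor and the protease of the inflammasome were plentiful while its sensor Nlrp3 was barely measured, with over 3 reads in 5 of 12 libraries. Absence of a gene went with single libraries: 7 of the 10 genes had at most 3 reads in PA IEL replicate 2, 5 in PA LP replicate 2 and 5 in ND IEL replicate 2, against 0 to 4 in the others. At most 3 reads is taken as the floor under which values have no order, and it covers counting error only.

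**Figure D1:**
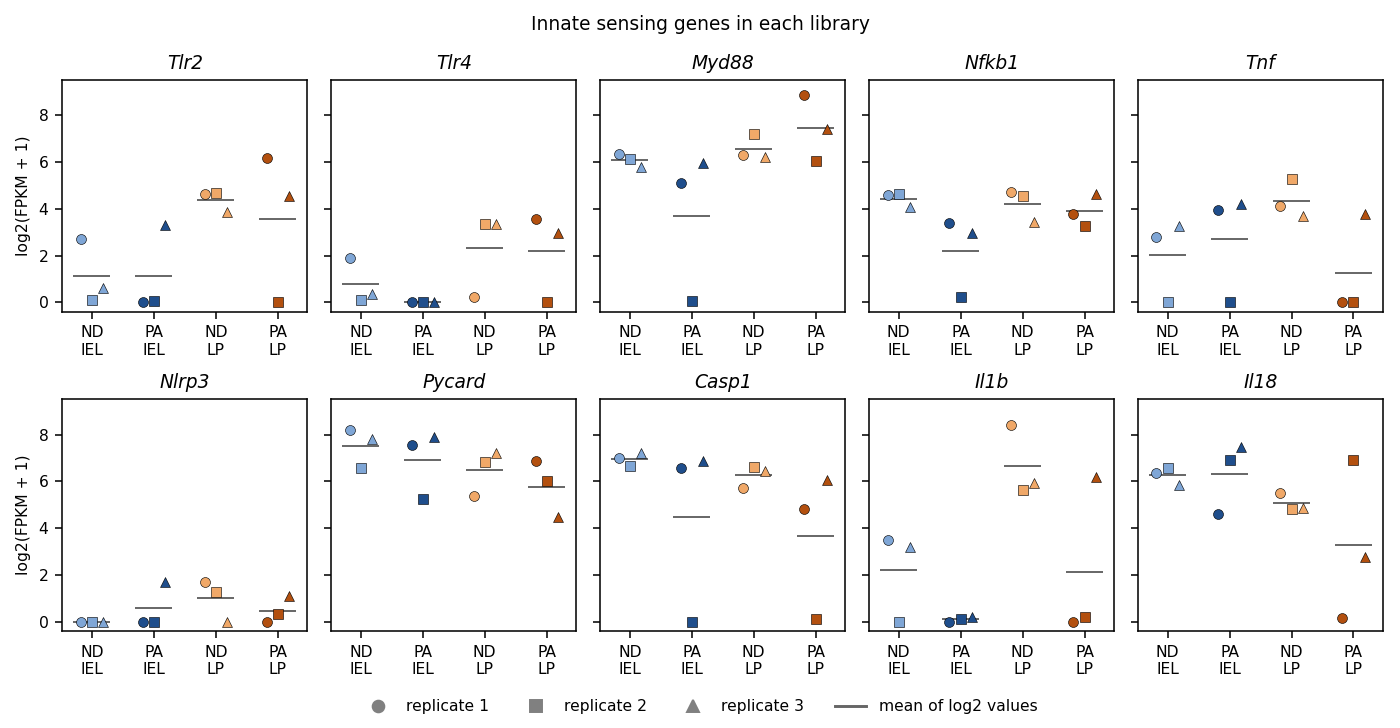
Levels of the 10 genes as log2(FPKM + 1) in each of the 12 libraries, by group, with 1 symbol per library and a grey line for the mean of the 3 log2 values. Tlr2, Tlr4 and Il1b lie mostly higher in LP than in IEL, and PA IEL replicate 2 (dark blue square) lies at or near 0 for 8 of the 10 genes, Nfkb1 included, at 0.167 FPKM.

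Between the layers, 0 of the 10 genes passed an adjusted p of 0.05 (limma, Benjamini-Hochberg over all 12502 genes), where 0.88% of all genes did. At an unadjusted p under 0.05, 4 of the 10 were higher in LP (Il1b, Tlr2, Myd88 and Tlr4) and 1 was lower (Il18), against 7.34% of all genes higher and 6.1% lower. Over the 10 genes, 7 had a positive LP minus IEL difference, with a median of 0.60 on the log2 scale, against 53.4% of all genes and a median of 0.08. The answer depended on the libraries with the fewest genes. Without PA IEL replicate 2 and PA LP replicate 2, Tlr2 and Myd88 passed the threshold as higher in LP and Il18 as lower, where 6.65% of all genes passed. With libraries weighted by their quality, Tlr4 passed as well, and 7.85% of all genes did. All differences are on the scale of log2(FPKM + 1), which understates the change of low genes.

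Tlr2, the lipoprotein receptor (GRCm38, chr3:83836272-83841767, minus strand), had the larger layer difference of both receptors. In IEL it was at 5.52, 0.059 and 0.539 FPKM in the ND libraries and at 0, 0.027 and 8.88 in the PA libraries. In LP it reached 24.2, 24.3 and 13.5 FPKM under ND and 71.9, 0 and 22.7 under PA. Of the LP libraries, 5 of 6 thus stood above every IEL library, and the exception was PA LP replicate 2. The fitted LP minus IEL difference was 2.86 on the log2 scale (SE 1.08, adjusted p = 0.252, limma), and an exact permutation test within diets gave p = 0.04. Without both libraries with the fewest genes the difference was 3.49, with SE 0.85 and an adjusted p of 0.0321 by limma.

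Tlr4, the lipopolysaccharide receptor (chr4:66827584-66930284, plus strand), was low throughout and followed Tlr2. It was listed at 0 in all 3 PA IEL libraries and at 2.76, 0.064 and 0.285 FPKM in the ND IEL libraries, which correspond to 156, 3 and 16 reads. In LP the ND libraries had 0.178, 9.26 and 9.34 FPKM and the PA libraries 10.8, 0 and 6.88. In all, 4 LP libraries stood above all IEL libraries, and ND LP replicate 1 and PA LP replicate 2 lay among them. The difference between layers was 1.86 on the log2 scale (SE 0.78, adjusted p = 0.309, limma), with an exact permutation p of 0.06.

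Myd88, the adaptor shared by both receptors (chr9:119335934-119341411, minus strand), was present in 11 of 12 libraries at over 30 FPKM. The ND IEL libraries had 79.9, 69.4 and 53.8 FPKM and the PA IEL libraries 33.1, 0.043 and 61.1. Under ND the LP libraries had 78.2, 145.5 and 73.1 FPKM, and under PA 468.6, 66.0 and 167.7. The ND libraries of both layers overlapped, whereas PA LP replicate 1 was far above every other library. The layer difference was 2.12 on the log2 scale (SE 0.86, adjusted p = 0.289, limma), with an exact permutation p of 0.02. Its size fell to 1.55 (SE 0.39, adjusted p = 0.0366, limma) without both libraries with the fewest genes. Exons of Myd88 share 290 bases with the neighbour Acaa1a on the opposite strand, and the library kit does not mark strand, so reads there cannot be assigned to one of the genes.

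Il1b, the precursor of interleukin-1β (chr2:129364570-129371139, minus strand), had the largest LP minus IEL difference of the 10 genes. In ND IEL it was at 10.1, 0 and 8.18 FPKM, and in PA IEL at 0, 0.065 and 0.141, which is 0, 1 and 2 reads. In ND LP all 3 libraries held it, at 337.4, 48.4 and 60.2 FPKM, whereas PA LP had 0, 0.163 and 72.8. The 3 ND LP libraries and PA LP replicate 3 were therefore above all 8 others. The LP minus IEL difference was 3.24 on the log2 scale (SE 1.14, adjusted p = 0.204, limma), with an exact permutation p of 0.025. The highest value, in ND LP replicate 1, came with the highest summed level of the myeloid marker list, 1.86% of all FPKM against 0.176% to 1.31% in the other libraries. By contrast, PA IEL replicate 2, at 1.31%, and PA LP replicate 2, at 1.01%, held 1 and 2 reads of Il1b. PA LP replicate 3, at 0.176%, had 72.8 FPKM of Il1b. The part of myeloid cells in the Il1b values was not tested. Exons of Il1b share 25 bases with Il1bos on the opposite strand.

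Il18, the precursor of interleukin-18 (chr9:50554827-50581840, plus strand), ran the other way. The ND IEL libraries had 82.0, 93.5 and 56.4 FPKM and the PA IEL libraries 23.5, 119.7 and 173.7. Lower values were found in ND LP, at 44.6, 27.6 and 28.4 FPKM, and in PA LP replicates 1 and 3, at 0.118 and 5.70, while PA LP replicate 2 had 120.7. Under ND all 3 LP libraries were below all 3 IEL libraries. The share of all genes with this order was not worked out, so the order is a description only. The difference was -2.12 on the log2 scale (SE 0.94, adjusted p = 0.343, limma; exact permutation p = 0.08), and -2.88 (SE 0.65, adjusted p = 0.0235, limma) without both libraries with the fewest genes. Most markers of epithelium moved the same way, with 13 of 17 lower in LP and 4 higher, against 46.6% of all genes lower. The 17 measured genes of that list summed to 3.75% to 9.32% of all FPKM in ND IEL and 0.502% to 5.99% in PA IEL, against 0.827% to 1.51% in ND LP and 0.179% to 0.375% in PA LP. A few genes weigh most in these sums: in ND IEL replicate 2, Fabp2 had 35069 and Apoa1 31904.5 of the 82621 FPKM. Of the 17 genes, 4 passed the threshold as lower in LP, where 0.464% of all genes did, Apoa1 by -7.49 (SE 0.78, adjusted p = 0.000387) and Fabp2 by -5.02 (SE 0.89, adjusted p = 0.015) on the log2 scale. PA LP replicate 2, with Il18 at 120.7 FPKM, had 0.375% of FPKM in the epithelial list, against 0.252% and 0.179% in PA LP replicates 1 and 3. The ND LP libraries, at 0.827% to 1.51%, had Il18 at 27.6 to 44.6 FPKM. The part of epithelial cells in the Il18 values was not tested.

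The promoters of the cytokine genes are shown because interleukin-1β and interleukin-18 are matured by the same inflammasome while their genes had their higher values in opposite layers, and because Tnf and Il1b were both at or near 0 in 2 of 3 PA LP libraries. The sequences are the 250 bases before the RefSeq transcript start on GRCm38.p6, written in the direction of transcription, and capitals mark TATAAA on either strand. The Il1b window lies on the minus strand at chr2:129371140-129371389, that of Tnf on the minus strand at chr17:35202008-35202257 and that of Il18 on the plus strand at chr9:50554450-50554699.
Il1b: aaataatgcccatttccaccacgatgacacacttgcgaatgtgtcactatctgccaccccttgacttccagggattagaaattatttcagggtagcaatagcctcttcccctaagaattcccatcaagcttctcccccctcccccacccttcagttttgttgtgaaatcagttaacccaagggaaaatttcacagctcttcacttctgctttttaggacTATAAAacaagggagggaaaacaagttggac
Tnf: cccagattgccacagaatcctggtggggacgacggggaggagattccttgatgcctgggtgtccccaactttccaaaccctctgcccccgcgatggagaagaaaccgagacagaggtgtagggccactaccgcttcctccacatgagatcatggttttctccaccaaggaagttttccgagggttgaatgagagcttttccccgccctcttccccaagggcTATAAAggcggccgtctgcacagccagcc
Il18: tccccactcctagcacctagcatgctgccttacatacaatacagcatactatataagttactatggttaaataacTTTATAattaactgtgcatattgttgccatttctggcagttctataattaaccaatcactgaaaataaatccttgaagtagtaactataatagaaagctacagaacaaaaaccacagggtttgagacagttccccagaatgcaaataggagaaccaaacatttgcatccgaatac
In Il1b and Tnf the match ends 25 and 23 bases before the start, and in Il18 it lies on the reverse strand, 169 bases before the start. TATAAA occurs in 12.4% of all 32851 windows of this length. A loose NF-kB-like pattern, GGGANNNNCC on either strand, is found in 17.6% of them, and among the members only in the windows of Tlr2, 162 bases before the start, and Nlrp3, 176 bases before it. Windows were found for 8 of the 10 genes. The RefSeq starts are not always the ends of the gene spans given here. The Il18 window ends at chr9:50554699, while its gene span starts at 50554827. The Tlr2 window lies partly inside the Tlr2 gene span, and the Myd88 window lies wholly inside the Myd88 gene span. A match describes the letters only.

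Tnf (chr17:35199381-35202007, minus strand), a cytokine released by activated immune cells, did not separate the layers over both diets. It was at 5.98, 0 and 8.65 FPKM in ND IEL and 14.4, 0 and 17.4 in PA IEL. In LP the ND libraries had 16.4, 37.3 and 11.9 FPKM and the PA libraries 0, 0 and 12.7. Under ND every LP library was thus above every IEL library, while the PA libraries of both layers overlapped. The share of all genes with this order was not worked out, so it is a description only. The LP minus IEL difference was 0.44 (95% interval -1.79 to 2.66) on the log2 scale. Nfkb1, which encodes the p105/p50 subunit of NF-kB (chr3:135584655-135691547, minus strand), was at 23.1, 23.7 and 16.1 FPKM in ND IEL, 9.49, 0.167 and 6.72 in PA IEL, 25.3, 22.2 and 9.75 in ND LP and 12.9, 8.49 and 23.8 in PA LP. Its layer difference was 0.75 with a 95% interval of -0.93 to 2.42. Both intervals span 0 and still hold differences of over 4-fold.

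Among the inflammasome genes, none had an unadjusted p under 0.05 between the layers. Nlrp3, the sensor (chr11:59541568-59566956, plus strand), was listed at 0 in 7 of 12 libraries, all 3 ND IEL libraries included. It was at 0, 0 and 2.23 FPKM in PA IEL, 2.23, 1.43 and 0 in ND LP and 0, 0.239 and 1.13 in PA LP. Pycard, the adaptor ASC (chr7:127989708-127993867, minus strand), had 292.9, 92.8 and 221.9 FPKM in ND IEL, 189.0, 37.2 and 237.5 in PA IEL, 40.4, 111.8 and 149.3 in ND LP and 114.3, 63.2 and 21.1 in PA LP. The LP minus IEL difference of Pycard was -1.09 (SE 0.61, adjusted p = 0.488, limma), and the groups overlapped. Its exons share 485 bases with a gene on the opposite strand, Gm45205. Casp1, the protease (chr9:5298517-5307265, plus strand), had 126.2, 100.8 and 149.2 FPKM in ND IEL, 92.6, 0 and 116.2 in PA IEL, 51.7, 95.7 and 86.2 in ND LP and 27.3, 0.070 and 65.4 in PA LP. Under ND all 3 LP libraries were below all 3 IEL libraries. The share of all genes with this order was not worked out, so the order is a description only. The fitted difference over both diets was -0.76 (SE 1.16, adjusted p = 0.864, limma).

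**Figure D2:**
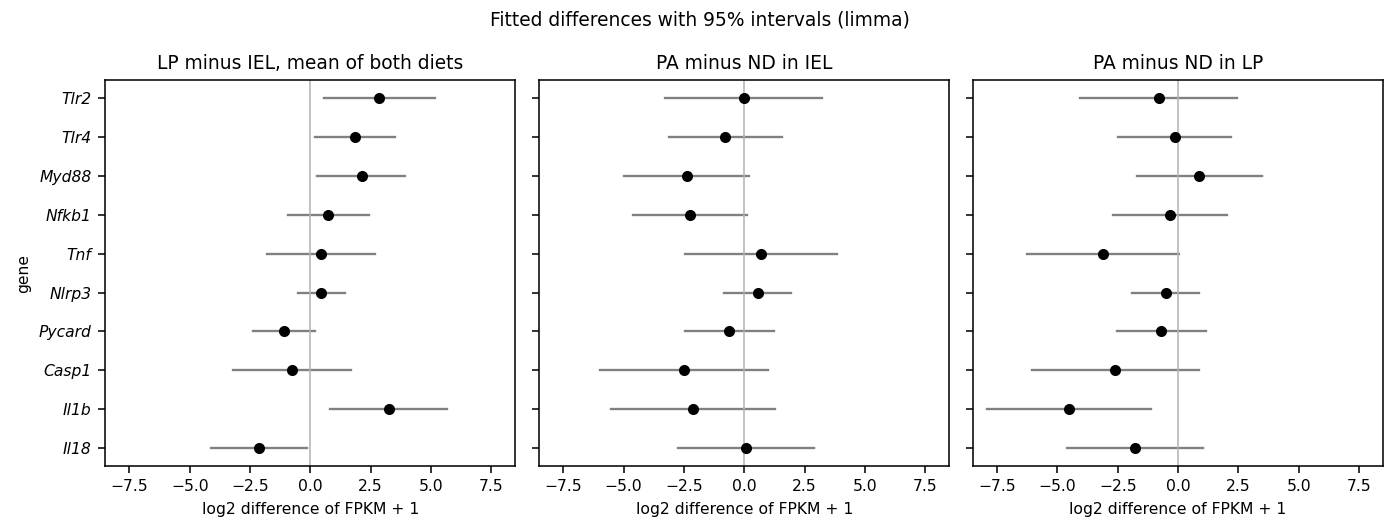
Fitted differences of log2(FPKM + 1) for the 10 genes with 95% intervals (limma, 12 libraries in 1 fit), between layers on the left and between PA milk and ND in each layer. Intervals of Tlr2, Tlr4, Myd88, Il1b and Il18 leave out 0 between the layers, and that of Il1b does so for PA milk against ND in LP, before adjustment over all genes.

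PA milk was compared with ND within each layer to ask whether the nursing diet left a mark on these genes in adult offspring. In IEL, 0 of the 10 genes passed the threshold (0.0% of all genes did), and 0 had an unadjusted p under 0.05, against 3.58% of all genes. The PA minus ND difference was negative for 7 of the 10, with a median of -0.70, while 60.5% of all genes were lower and their median was -0.30. Without both libraries with the fewest genes it was negative for 6 of the 10, with a median of -0.24, against 48.3% of all genes and a median of 0. The smallest p that exact permutation of 3 against 3 libraries allows is 0.1. Nfkb1 reached that smallest value, all 3 PA libraries being below all 3 ND libraries, as was the case for 4.97% of all genes when values of at most 3 reads are taken as ties. For Nfkb1 the difference was -2.25 (SE 1.12, adjusted p = 0.947, limma), and -1.27 without PA IEL replicate 2, where it had 0.167 FPKM. Tlr4 in PA IEL was listed at 0 in every library, so no fold is given, and since ND IEL replicate 2 had only 3 reads, the groups were not separated beyond the floor. Il1b in PA IEL added up to 3 reads against 318 in ND IEL, a ratio of 0.0108 after division by library size, with a counting interval of 0.00221 to 0.0318, yet ND IEL replicate 2 had none of these reads either. The fitted difference of Il1b was -2.13 (SE 1.61, adjusted p = 0.947, limma). Myd88 and Casp1 had differences of -2.38 and -2.49, which became -0.56 and -0.25 without both libraries with the fewest genes.

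In LP, again 0 of the 10 genes passed the threshold (0.0% of all genes did). One of them, Il1b, had an unadjusted p under 0.05, against 4.7% of all genes. It differed by -4.51 on the log2 scale (SE 1.61, adjusted p = 0.979, limma; exact permutation p = 0.3), since 2 of 3 PA libraries held at most 2 reads of it and the remaining one, at 72.8 FPKM, lay within the range of the ND libraries. Tnf showed the same arrangement, 2 PA libraries listed at 0 and 1 within the ND range, with a difference of -3.10 (SE 1.48, adjusted p = 0.979, limma). Of the 10 genes, 9 had a negative difference, with a median of -0.75, where 62.2% of all genes were lower with a median of -0.36. Myd88 was the exception at 0.88 (SE 1.22). Without both libraries with the fewest genes, 3 of the 10 were higher with PA milk (Tlr2, Tlr4 and Myd88, at 0.99, 0.95 and 1.57), of which Tlr2 and Tlr4 changed sign. The other 7 stayed negative and the median of the 10 was -0.63, while 52.2% of all genes were lower, with a median of -0.05. Il18 then had an unadjusted p under 0.05 as lower (-3.62, SE 0.92, adjusted p = 0.366, limma) and Myd88 as higher (adjusted p = 0.603), where 7.06% of all genes had such a p. The Il1b difference was then -3.55 with an unadjusted p above 0.05.

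The diet difference itself did not differ detectably between the layers. In that test 0 of the 10 genes passed (0.0% of all genes did), and 0 had an unadjusted p under 0.05, against 2.34% of all genes. The farthest from 0 were Tnf, at -3.79 (SE 2.1), and Myd88, at 3.26 (SE 1.72), both with an adjusted p of 1.0 by limma. Without both libraries with the fewest genes, again 0 of the 10 passed, but 3 had an unadjusted p under 0.05, against 4.53% of all genes. These were Myd88, at 2.13 (SE 0.78), Tnf, at -4.52 (SE 1.84), and Il18, at -3.39 (SE 1.3), each with an adjusted p of 0.959 by limma. Averaged over both layers, PA milk against ND also gave 0 of 10 past the threshold (0.0% of all genes did), with Il1b and Casp1 at an unadjusted p under 0.05, where 6.02% of all genes were. Il1b differed by -3.32 on the log2 scale (SE 1.14, adjusted p = 0.757, limma; exact permutation p = 0.06). Casp1 differed by -2.54 (SE 1.16, adjusted p = 0.805, limma; exact permutation p = 0.035), but the 2 values near 0 that carry this are the libraries with the fewest genes, and without them the difference was -0.53 (SE 0.35). For Nfkb1 the same average was -1.29 (SE 0.79, adjusted p = 0.813, limma; exact permutation p = 0.045). The Il1b difference without the libraries with the fewest genes was -2.84 (SE 1.2, adjusted p = 0.834, limma).

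The other genes of these pathways were followed in 7 lists by role, 127 genes without the 10, of which 122 were in the table and 104 could be tested. Between the layers 0 of the 104 passed the threshold, where 0.88% of all genes did, with 15 higher and 3 lower in LP at an unadjusted p under 0.05. Over all genes 7.34% were higher and 6.1% lower at that level, so the 3 of 104 lower lie under the share of all genes. Of the genes that Toll-like receptor signals switch on, 8 of 19 were higher in LP at that level and 0 lower, against the same 7.34% and 6.1%, with a median of 1.70 on the log2 scale against 0.08 over all genes. Cxcl10, a chemokine, came closest to the threshold with a difference of 5.92 (SE 1.34, adjusted p = 0.0508, limma), and passed it with library weights, at 6.81 (adjusted p = 9.25e-05, limma), and without the libraries with the fewest genes, at 7.55 (adjusted p = 2.86e-05, limma). It was at 131.9, 153.0 and 58.3 FPKM in ND LP and at 801.4, 0 and 662.0 in PA LP, against 0 to 2.89 in all 6 IEL libraries. Ier3, an early response gene, differed by 4.84 (SE 1.55, adjusted p = 0.159, limma), with 406.1 to 5166 FPKM in 5 LP libraries, 0.310 in PA LP replicate 2 and 0.248 to 63.4 in IEL. Zfp36, which speeds the decay of cytokine mRNAs, was the highest of the response genes, at 388.3 to 7640 FPKM, with a difference of 1.32 (SE 0.55, adjusted p = 0.309, limma). Cxcl1 and Il6 were also among the 8 response genes higher in LP at an unadjusted p under 0.05 (limma). Both were singled out after their values were seen. Without the libraries with the fewest genes, 12 of the 104 passed the threshold, all 12 higher in LP, where 6.65% of all genes passed. Of these, 7 were response genes, and among the rest were the NF-kB inhibitor Nfkbia, at 1.94 (SE 0.34, adjusted p = 0.0066), and Cd36, a fatty acid receptor that pairs with TLR2, at 3.25 (SE 0.69, adjusted p = 0.0177), both by limma. With all 12 libraries Nfkbia was at 1.47 (SE 0.79, adjusted p = 0.452, limma) and Cd36 at 2.39 (SE 0.81, adjusted p = 0.187, limma).

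**Figure D3:**
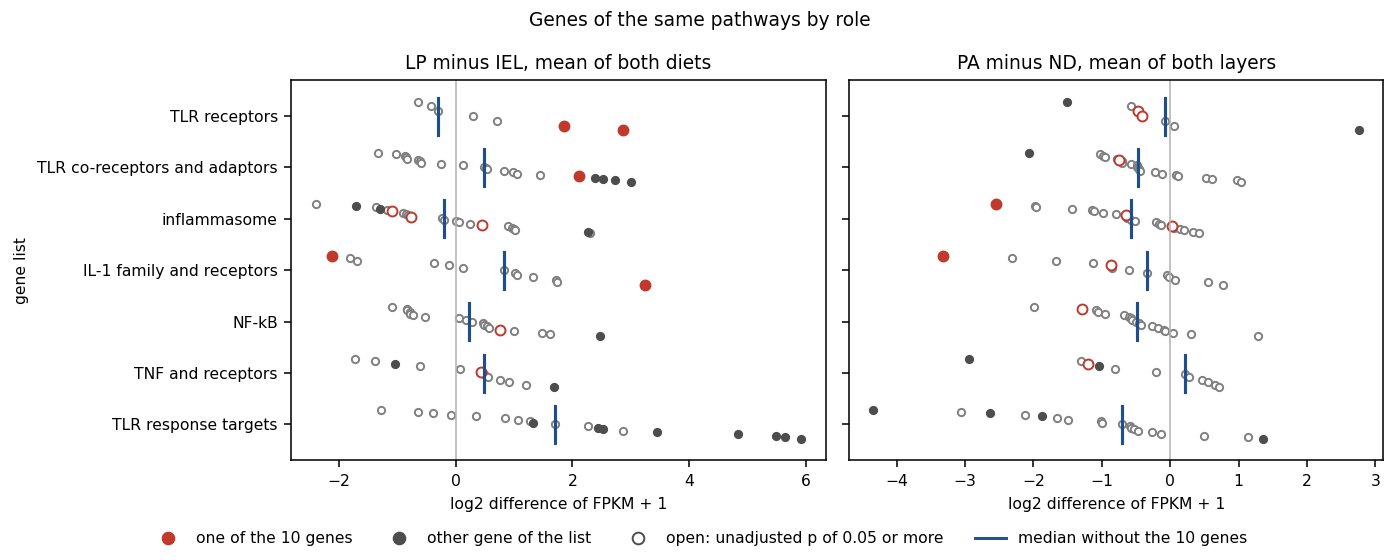
Differences of log2(FPKM + 1) for every tested gene of the 7 role lists, LP minus IEL on the left and PA milk minus ND on the right. Red points are members of the 10 genes, filled points have an unadjusted p under 0.05, and the blue line is the median without the 10, which is 1.70 for the response genes between layers and -0.71 between diets. Without both libraries with the fewest genes (not drawn) the median between diets was 0.41, with 12 response genes higher and 7 lower.

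Of the 10 other receptors of the family, 5 had enough signal to be tested. Tlr8, which senses RNA in endosomes, was the highest of them and behaved unlike Tlr2 and Tlr4. It was at 8.80, 11.2 and 3.798 FPKM in PA IEL and at 10.7, 40.9 and 0 in PA LP, but at 0, 1.96 and 0 in ND IEL and 0 in all 3 ND LP libraries. The PA minus ND difference over both layers was 2.76 (SE 0.85, adjusted p = 0.709, limma), and PA LP replicate 3 overlapped with the ND libraries. Tlr13, another endosomal RNA sensor, was listed at 0 in 7 libraries and reached 44.3 FPKM in PA LP replicate 2 and 16.4 in ND IEL replicate 2. Unc93b1, which carries the endosomal receptors to their compartment, was present in all 12 libraries at 38.2 to 345.2 FPKM and differed by -0.60 between the layers (SE 0.46). In contrast to these, Txnip, which binds NLRP3, and Gsdmd, the pore protein cut by caspase-1, were present in all 12 libraries, at 68.3 to 355.1 and 19.6 to 524.5 FPKM. The LP minus IEL difference of Gsdmd was -1.30 (SE 0.57, adjusted p = 0.334, limma), of the same sign as for Pycard and Casp1. Of the other genes with the highest levels in their lists, the NF-kB brake Tnfaip3 was at 0.018 to 303.9 FPKM, the decoy Il18bp, which binds interleukin-18, at 0 to 244.0 and the lymphotoxin gene Ltb at 0 to 568.7. Their layer differences were 1.61 (SE 1.13), 0.82 (SE 1.24) and 0.91 (SE 1.6). The TNF receptor gene Tnfrsf1a, at 5.05 to 180.3 FPKM, differed by 1.68 (SE 0.74, adjusted p = 0.337, limma). With library weights it passed the threshold, at 1.91 (adjusted p = 0.0392). Between the diets, 0 of the 104 genes passed in either layer. In LP 32 of 104 were higher with PA milk, against 37.4% of all genes, and 60 of 104 without the libraries with the fewest genes, against 47.4% of all genes. The count thus went from under the share of all genes to over it. Without those libraries 10 of the 104 were higher and 1 lower at an unadjusted p under 0.05, against 7.06% of all genes in either direction. None passed the threshold. Of the 19 response genes, 6 were then higher and 1 lower at that level. Their median in LP was 0.64, against -1.22 with all 12 libraries. With all 12 libraries Ptgs2, which encodes cyclooxygenase-2, was the role gene with the smallest p in LP, at 120.5, 96.3 and 2.88 FPKM with ND and 0, 0 and 5.46 with PA milk (difference -4.27, SE 1.31, adjusted p = 0.979, limma). In IEL it was Tnfsf13b, the B cell factor BAFF, listed at 0 in all PA libraries and at 1.47, 11.04 and 1.57 FPKM with ND (difference -2.08, SE 0.63, adjusted p = 0.947, limma). For the difference of the diet effect between the layers it was Sigirr, a receptor of the IL-1 family that dampens MyD88 signals, at 16.9, 56.8 and 24.8 FPKM in ND IEL and 50.9, 161.1 and 30.2 in PA IEL. In LP it was at 27.1, 50.3 and 42.2 FPKM with ND and 0.393, 0 and 41.3 with PA milk. The difference of the diet effect was -4.44 (SE 1.83, adjusted p = 1.0, limma).

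Over the 12 libraries some of the 10 genes ran together, as a description over libraries that share depth and cell makeup. Values of at most 3 reads were ranked as listed, although they have no order. Tlr2, Tlr4 and Myd88 had Spearman coefficients of 0.80 to 0.82 with each other, and Pycard and Casp1 had 0.75. Tlr4 and Il18 ran opposite at -0.70, and Il1b had 0.46, 0.38 and 0.40 with Tlr2, Tlr4 and Myd88. Of all tested genes, Dmbt1, a secreted protein of gut epithelium, and Ppp1r1b were nearest to Pycard, both with 0.97. Bcl2l15 at 0.98 and Bpnt1 at 0.97 were nearest to Casp1. Tmem60 and Ticam2, an adaptor of TLR4, were nearest to Nlrp3, both with 0.84. Among the receptors, Sowahc at 0.99 and Setbp1 at 0.97 were nearest to Tlr2, and Cdc42bpa at 0.98 and Fam168a at 0.97 to Tlr4. For Myd88 the nearest were Atp1b3 at 0.96 and Gm4951 at 0.92, and for Nfkb1 Camta2 at 0.95 and Arl8b at 0.92. The cytokine genes had Ttll1 at 0.96 and P2rx1 at 0.94 nearest to Il1b, Ahcyl1 and Zbtb7a, both at 0.97, nearest to Il18, and Zfp346 at 0.97 and Xylt2 at 0.95 nearest to Tnf.

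**Figure D4:**
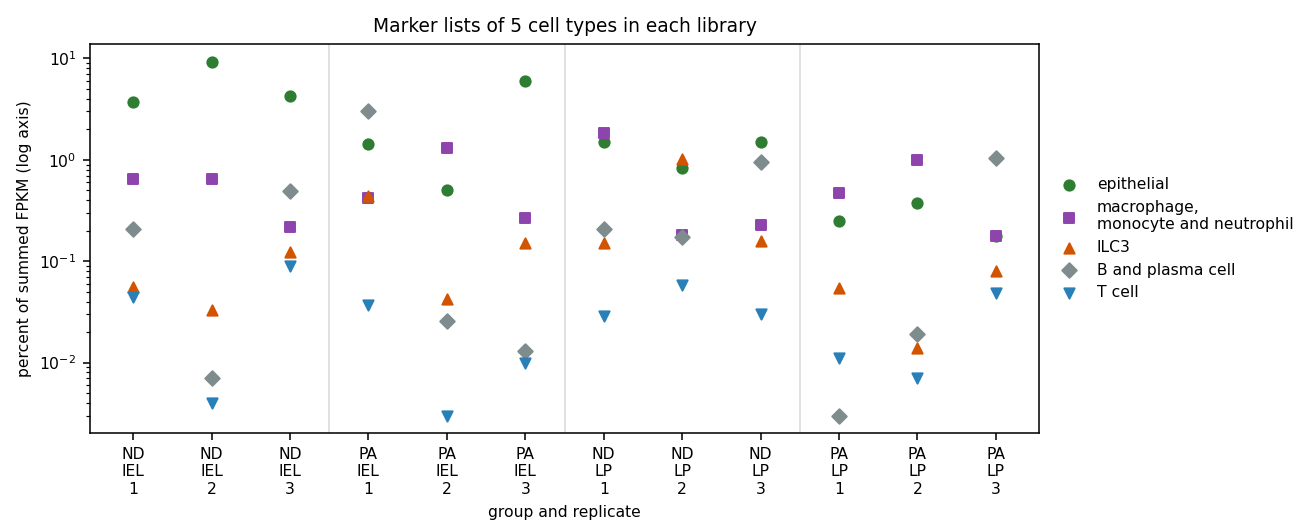
Summed level of marker lists for 5 cell types in each library, as percent of all FPKM on a log axis. The epithelial list is at 0.502% to 9.32% in the 6 IEL libraries and at 0.179% to 1.51% in the 6 LP libraries, and the myeloid list is highest, at 1.86%, in ND LP replicate 1.

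The marker lists put these values in place. Of the epithelial genes, 16 of 17 had a negative PA minus ND difference in IEL and 17 of 17 in LP, 0 of them past the threshold, where 60.5% and 62.2% of all genes were lower. Without both libraries with the fewest genes these counts were 14 of 17 and 17 of 17, against 48.3% and 52.2% of all genes. The share of the myeloid list overlapped between all 4 groups, at 0.219% to 0.649% in ND IEL, 0.268% to 1.31% in PA IEL, 0.181% to 1.86% in ND LP and 0.176% to 1.01% in PA LP. Of its 21 genes 0 passed the threshold between the layers or between the diets. The ILC3 list made up 0.033% to 0.122% of FPKM in ND IEL, 0.042% to 0.436% in PA IEL, 0.153% to 1.01% in ND LP and 0.014% to 0.080% in PA LP, and in LP 19 of its 20 genes had a negative PA minus ND difference, against 62.2% of all genes. Without the libraries with the fewest genes 15 of 20 had one, against 52.2% of all genes. In IEL the list went the other way, with 14 of 20 higher with PA milk, against 38% of all genes, and a median of 0.79. Without those libraries 17 of 20 were higher in IEL, against 50.1% of all genes, with a median of 2.04. Il22, the ILC3 cytokine, was at 0.164, 4339 and 198.0 FPKM in ND LP and at 0.089 to 0.416 in PA LP. The PA LP group thus had low Il1b and Tnf in 2 of 3 libraries and a summed ILC3 list below that of every ND LP library in all 3, and the part of cell makeup in this was not tested. The T cell list, with Lck and Cd3g as its highest genes, was at 0.003% to 0.089% of FPKM. Its median was 0.044% in ND IEL and 0.01% in PA IEL, and 0.03% in ND LP and 0.011% in PA LP. The B and plasma cell list, led by Igj and Cd79a, was at 0.003% to 3.01%, with a median of 0.21% in both ND groups, 0.026% in PA IEL and 0.019% in PA LP. Both lists thus had lower medians of the summed share with PA milk in each layer, while the ranges of PA and ND libraries overlapped. Gene by gene, 5 of 9 tested B and plasma cell genes were higher with PA milk in IEL, against 38% of all genes, and 0 of 9 in LP, against 37.4%. Igj can make up most of that sum, with 17871 of 18416 FPKM in PA IEL replicate 1. The dendritic list, led by Cst3 and Siglech, was at 0.103% to 0.493%, and Siglech, a marker of plasmacytoid dendritic cells, was lower in LP by -5.04 on the log2 scale (SE 1.02, adjusted p = 0.0276, limma). Its list did not follow it: 6 of 10 genes were higher in LP and 4 lower, with a median of 0.33, against 53.4% of all genes higher. In the myeloid list Tyrobp, at 119.2 to 3144 FPKM, was the gene with the highest level after Lyz2.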

How the data were processed

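RNA of the 12 sorted libraries was amplified with the SMART-Seq v4 kit, which neither marks strand nor counts molecules. The authors mapped reads to mm10 with TopHat2 2.1.1, Bowtie2 2.2.8.0 and SAMtools 0.1.18 and quantified genes with Cufflinks 2.2.1, per the labels and the study's methods. FPKM values were deposited by the authors for 23284 genes, on a common scale. The second table deposited by the authors holds counts divided by a size factor and rounded, so its unit is a score. Its ratio to FPKM stayed within 0.1% over all libraries for 82.0% of 2072 high genes. Low values were whole multiples of 1 read, within 0.05, for 90.7% to 100.0% per library, which gave the reads. Sequencing totals behind the reads give the precision of low values only.

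Groups were taken from the sample labels, which name no batch. Genes that reached 1 FPKM in 3 or more libraries were fitted on log2(FPKM + 1) with limma 3.58.1 (trend, R 4.3.3), all 12 libraries in 1 fit of 4 group means, with Benjamini-Hochberg adjustment and a threshold of 0.05. Two-sided exact permutation tests shuffled libraries within strata, and their p-values are not adjusted over the genes. Summaries used Python 3.11.15, pandas 2.3.3, numpy 2.4.6, scipy 1.17.1 and matplotlib 3.10.9, and the fit was tested on simulated data. Alternatives were other pseudocounts, filters, scalings, weights, voom on reads, replicate blocks and libraries left out. Coordinates are from GENCODE vM21 and promoters from RefSeq. Members, lists, naming rules and alternatives were chosen with earlier results of these data known. Besides the 10 genes, the text names the 2 genes of each list with the highest mean, the role gene with the smallest p in each comparison other than the mean diet effect, and each member's 2 nearest genes. Genes named as past the threshold in an alternative were chosen after their values were seen.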

Additional observations from a re-analysis of the deposited data

How the results depend on the processing

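No one of the 10 genes passed the threshold between PA milk and ND under any alternative. Between the layers, Tlr2, Tlr4, Myd88 and Il18 passed with sample quality weights (3.25, 2.37, 1.76 and -2.50 on the log2 scale), Tlr2, Myd88 and Il18 without both libraries with the fewest genes, and Tlr2 and Il18 without PA LP replicate 2 (3.76 and -3.03), in which both went against the other PA LP libraries. With the deposited scaling replaced by scaling on 30 leukocyte genes, the median of all genes moved from -0.30 to -0.49 between diets in IEL and from 0.08 to -0.07 between layers.

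Genes past the threshold between the layers, 110 as reported, numbered 58 with a pseudocount of 0.1, 30 without a filter, 64 with leukocyte scaling, 982 with weights, 202 with a replicate block by diet and number, 826 without both libraries with the fewest genes, and 38 to 521 with 1 library left out. Between diets, 0 as reported, they numbered in LP 3 with weights, 6 with voom, 3 with the replicate block and 0 to 7 with 1 library left out, in IEL 0 to 1, and over both layers 1 with weights, 2 with the replicate block and 0 to 2 with 1 library left out. Same-numbered libraries had correlations of -0.12 to 0.07 in their deviations, so the numbers gave no sign of pairing. Cxcl10 between the layers passed with the replicate block (adjusted p = 0.0472) and with the block by diet and number (0.038).

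Small differences changed sign. Il18 in IEL went to -0.0039 with upper quartile scaling, -0.31 with leukocyte scaling, -0.33 with weights and -0.23 without both libraries, with a range of -0.50 to 0.92 when 1 library was left out. Without both libraries Tlr2 in IEL was 0.52 (-1.12 to 0.76 with 1 left out) and Pycard in IEL 0.22 (-1.10 to 0.22). In LP, Tlr2 was 0.50 with weights and 0.99 without both, and Tlr4 0.11 and 0.95. Tnf between layers was -0.29 with weights, and Zfp36 between layers -0.13 with voom. With 1 library left out, Tnf in IEL ranged from -0.32 to 2.05, Casp1 between layers from -1.88 to 0.13, and the ranges of Tlr2 in LP, Tlr4 in LP and Tnf between layers were -2.11 to 0.99, -1.19 to 0.95 and -0.24 to 0.81. The cause of these changes was not tested.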
